A study of Drosophila melanogaster with 70 samples.

Results

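The cytoplasmic ribosomal protein genes of Drosophila melanogaster were placed against chromatin domain boundaries read from whole embryos. Members were the protein-coding genes whose symbol starts with RpL or RpS and a digit, or with RpLP, together with sta, which encodes the small subunit protein RpSA. There were 92 of them among the 13842 protein-coding genes of the arms 2L, 2R, 3L, 3R and X. They comprised 54 genes of the large subunit and 38 of the small subunit. RpS3A met the same rule but lies on chromosome 4, for which the lists hold no boundary.

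Ribosomal proteins assemble with ribosomal RNA into the large and the small subunit of the cytoplasmic ribosome, and every growing cell needs them in matched amounts. Their genes are among the most strongly transcribed housekeeping genes, and loss of 1 copy of many of them gives the short-bristled, slow-growing Minute phenotype. In fly embryos, domain boundaries are known to lie often at active housekeeping promoters, where insulator proteins bind. MOF acetylates lysine 16 of histone H4 and serves dosage compensation of the male X as part of the MSL complex.

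The boundaries came from in situ Hi-C, in which DNA ends that lie near each other in the nucleus are ligated and sequenced as pairs. Stage 5 (nuclear cycle 14, the blastoderm) had 3 libraries from embryos whose mothers carried the maternal driver mat-a-tubGal4 with a control RNAi transgene, and 2 from embryos of mothers with mat-a-tubGal4 and mof RNAi. Stage 15 (14 to 16 h) had 8 libraries, 2 for each combination of male or female with control or mof RNAi, in a Sxl-GFP background in which GFP sorted the sexes. In every group the mothers were crossed to their siblings. Each library came from a pool of hand-staged embryos. The ATAC-seq, ChIP-seq and input samples, 57 of 70, were not analysed here.

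Each list was taken to pool its libraries, with 2591 boundaries in the stage 5 control list, 2499 in the stage 5 mof RNAi list and 2785 in the stage 15 list. The driver acts in the mother, so the RNAi lowers what she supplies to the egg, and no mof level is contained in these lists. The stage 5 embryos were not sexed. The stage 15 list is named for libraries of both sexes and both RNAi conditions, so it gives no mof comparison. Stage cannot be told apart from the Sxl-GFP background or from the other stock of the driver used at stage 15. Nor can it be told apart from the making of the lists, which differed between the stages. In the stage 5 control, mof RNAi and stage 15 lists, 140, 140 and 0 boundaries were wider than 1 bin of 2.5 kb. Domains with bins missing from the boundary numbering held 27, 29 and 0 members. A single list stands for each condition, so replicate spread could not be measured and nothing was tested, and the depth behind each boundary is unknown.

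Ribosomal protein genes lay close to boundaries. A gene was counted as at a boundary when either of its annotated ends lay within 2.5 kb, the width of 1 Hi-C bin, of a boundary's midpoint. In the stage 5 control list 59 of 92 members were at a boundary (64.1%, 95% Wilson interval 53.9 to 73.2), beside 31.6% of all protein-coding genes. After mof RNAi it was 58 members (63.0%, 52.8 to 72.2), beside 29.5% of all genes. At stage 15 it was 56 members (60.9%, 50.7 to 70.2), beside 34.5%. The intervals cover counting error only and treat genes as independent, although some members share a boundary.

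The median distance of a member to the nearest boundary was 0.918 kb in both stage 5 lists and 1.03 kb at stage 15. The medians over all protein-coding genes were 6.17, 6.83 and 5.36 kb. The quartiles of the members were 0.367 and 5.9 kb in control, 0.409 and 6.76 kb after mof RNAi, and 0.409 and 7.88 kb at stage 15. A bin is 2.5 kb wide and the median member is 1315 bp long, so distances below about a bin do not resolve where in or beside the gene a boundary lies. An end of 50, 50 and 47 members fell within the boundary interval itself in the 3 lists (54.3%, 54.3% and 51.1%, beside 21.5%, 20.0% and 24.2% of all genes). The midpoint lay inside 24, 23 and 20 of the members (26.1%, 25.0% and 21.7%, beside 10.5%, 10.2% and 11.0%).

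**Figure D1:**
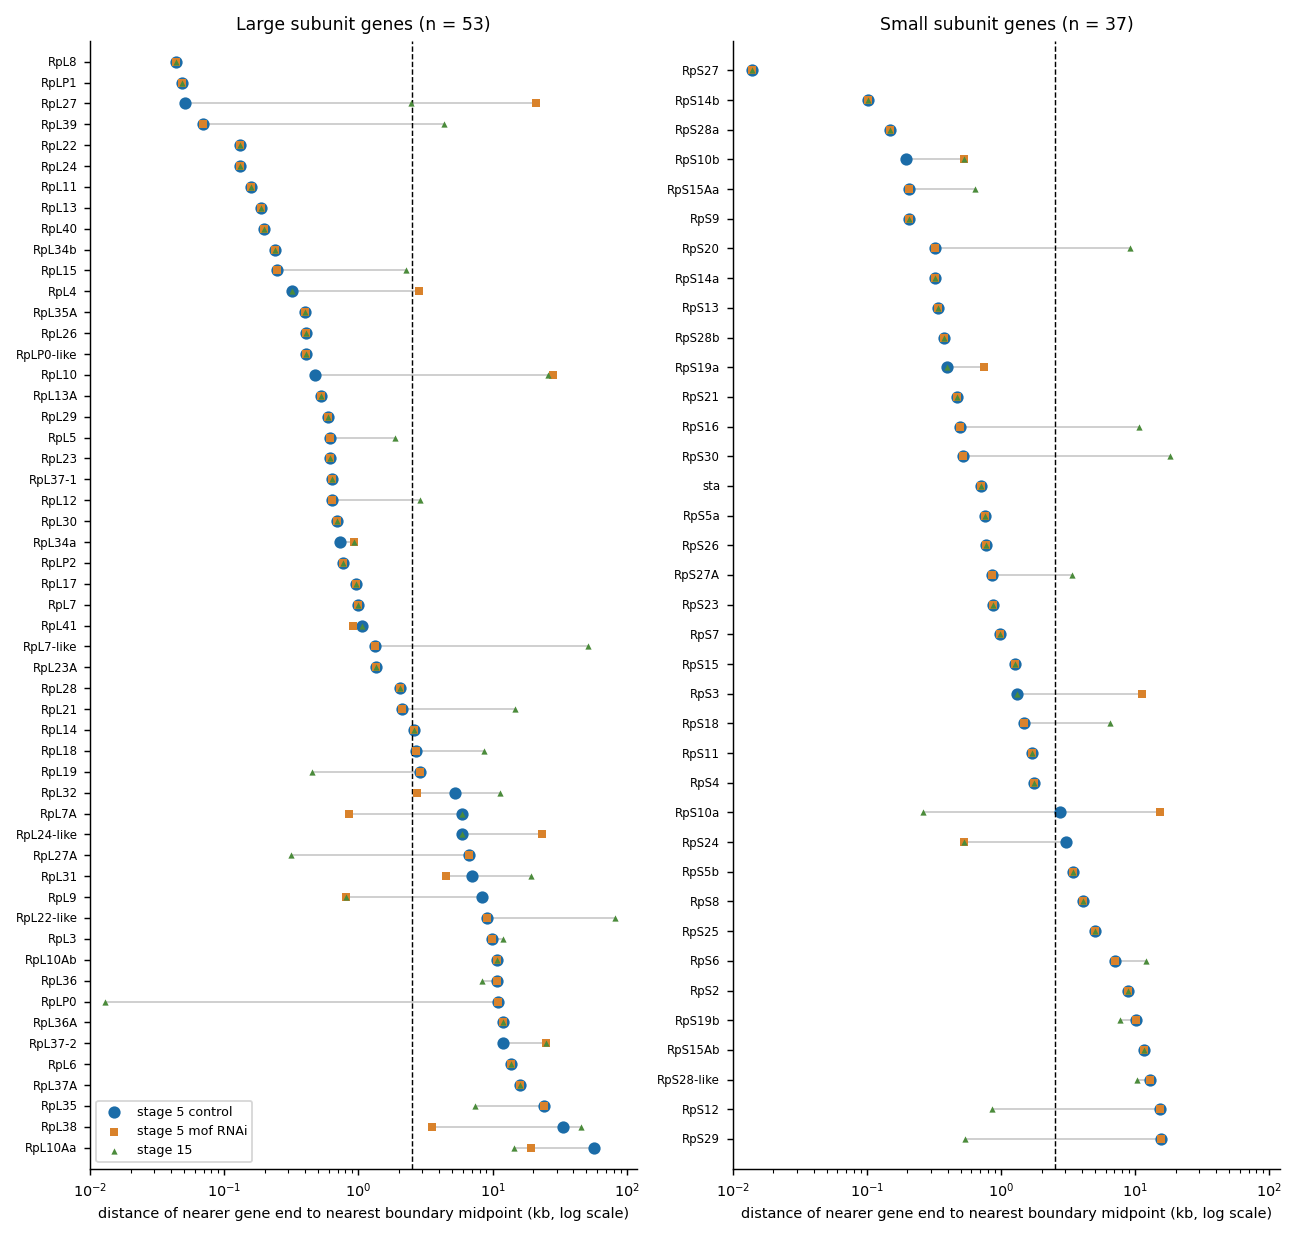
Distance in kb (log scale) of the nearer end of the ribosomal protein genes to the nearest boundary midpoint, with 53 large subunit genes on the left and 37 small subunit genes on the right (2 members are not shown), ordered by the stage 5 control value. Circles are stage 5 control, squares stage 5 mof RNAi, triangles stage 15, and the dashed line is 2.5 kb; for 44 of the genes shown all 3 marks lie to the left of it.

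The difference from all genes was seen at every window tried, and it was widest in proportion at the shortest. Within 1 kb of a boundary lay 48, 49 and 45 members in the control, mof RNAi and stage 15 lists, where all genes stood at 18.5%, 17.2% and 21.0%. The members' shares there were 52.2%, 53.3% and 48.9%. Within 5 kb lay 66, 67 and 63 members (71.7%, 72.8% and 68.5%), beside 45.1%, 42.5% and 48.4% of all genes. Within 10 kb lay 77, 73 and 73 members (83.7%, 79.3% and 79.3%), beside 63.6%, 60.5% and 67.2%. In control the members just inside the 2.5 kb window were RpL28 at 2.04 kb and RpL21 at 2.12 kb, and those just outside were RpL14 at 2.61 kb and RpL18 at 2.7 kb.

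**Figure D2:**
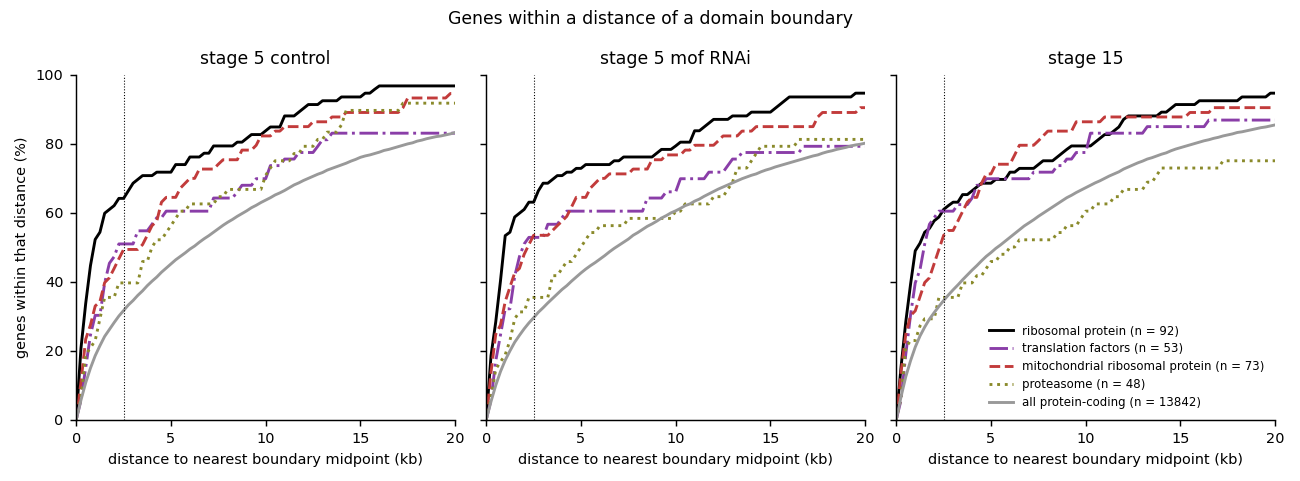
Share of genes (%) with an end within a given distance in kb of a boundary midpoint, for ribosomal protein genes (black), translation factors, mitochondrial ribosomal protein genes, proteasome subunit genes and all protein-coding genes (grey); each panel is 1 list and the dotted vertical line is 2.5 kb. The black line stands at 64.1%, 63.0% and 60.9% at that distance, and the grey line at 31.6%, 29.5% and 34.5%.

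Ribosomal protein genes are short, with a median of 1315 bp beside 2151 bp over all protein-coding genes. Their crowding by other genes was close to that of all genes. Of protein-coding genes no longer than RpS5a, the longest member at 4677 bp, 27.0%, 25.1% and 29.7% lay at a boundary, list by list. The members had a median of 10 ends of other protein-coding genes within 10 kb, and all genes had 9. The quartiles of this number were 6 and 13 both for the members and for all genes. Among genes with 6 to 13 such ends, 35.2%, 32.8% and 39.6% of all genes were at a boundary. Of the 49 members in that range it was 33, 33 and 32. In control 23 of the 30 members with at most 6 neighbouring ends were at a boundary (76.7%), and 10 of the 21 with 14 or more (47.6%). All genes in the same classes stood at 30.4% and 26.6%. What part crowding has in where the members lie was not tested.

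Other genes of protein synthesis stood between the ribosomal protein genes and the genome in control. Of 53 genes for translation initiation, elongation and release factors, 27, 28 and 32 lay at a boundary in control, after mof RNAi and at stage 15 (50.9%, 52.8% and 60.4%). Of 73 genes for mitochondrial ribosomal proteins it was 36, 39 and 39 (49.3%, 53.4% and 53.4%). Of 48 genes for proteasome subunits, the protein-degrading counterpart, it was 19, 17 and 17 (39.6%, 35.4% and 35.4%). These lists were taken by symbol, and no test of their differences was run. At stage 15 the translation factors and the cytoplasmic ribosomal protein genes (60.9%) had nearly the same share. The order at stage 15 changed with the window. Within 1 kb lay 48.9% of members, 39.6% of translation factors and 31.5% of mitochondrial ribosomal protein genes. Within 5 kb the shares were 68.5%, 69.8% and 71.2%, and within 10 kb they were 79.3%, 77.4% and 86.3%. In control, 83.7% of members and 82.2% of mitochondrial ribosomal protein genes lay within 10 kb.

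A core of 45 members (48.9%) was at a boundary in all 3 lists, beside 21.0% of all protein-coding genes. For 38 of the 45 the midpoint of the nearest boundary was the same in all 3. Another 24 members (26.1%, beside 55.9% of all genes) were at none, and 23 were at a boundary in 1 or 2 lists. The core had a median of 7 neighbouring gene ends within 10 kb, and the 24 members at none had 12.5.

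In the large subunit the core held the stalk proteins RpLP1 and RpLP2, which help recruit elongation factors. RpLP1 lay 0.048 kb and RpLP2 0.768 kb from a boundary in each list. RpL5 and RpL11, which bind 5S ribosomal RNA together, were both in the core. RpL11 stood at 0.158 kb throughout, and RpL5 at 0.616 kb in both stage 5 lists and 1.88 kb at stage 15. RpL40, made as a fusion to ubiquitin, stood at 0.199 kb throughout. RpL8 stood at 0.044 kb in each list.

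In the small subunit the gene nearest to a boundary was RpS27, at 0.014 kb in all 3 lists, with a boundary at 3R 25246251 to 25248750. That boundary is shared with the nuclear pore genes Nup37 and Nup358 and with bam, the switch of germline differentiation. RpS9 (0.207 kb), RpS13 (0.338 kb), RpS21 (0.471 kb), RpS26 (0.777 kb), RpS23 (0.873 kb) and sta (0.703 kb) held the same distance in each list. RpS21 had the boundary at 2L 2856251 to 2858750, whose score stood at percentile 1.33, 1.38 and 0.485 of the 3 lists, counted from the most negative.

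Of the 5 members farthest from a control boundary, only RpL37A kept its distance in all 3 lists. RpL10Aa, 1 of a pair of copies, stood at 56.9 kb in control, 19.4 kb after mof RNAi and 14.4 kb at stage 15. RpL38 stood at 33.5, 3.54 and 45.4 kb, and RpL35 at 24, 24 and 7.4 kb. RpL37A was at 16 kb in every list, and RpS29 at 15.5 kb in both stage 5 lists and 0.542 kb at stage 15. Of the genes at none of the 3, RpL3, which reaches toward the peptidyl transferase centre, stood at 9.83, 9.83 and 11.9 kb. RpS6, the protein phosphorylated by S6 kinase downstream of TOR, stood at 7.12, 7.12 and 12.1 kb. RpL32, often used as a reference transcript in flies, stood at 5.23, 2.73 and 11.3 kb.

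These counts did not settle whether large and small subunit genes differ. In control 33 of 54 large subunit genes (61.1%, 47.8 to 73.0) and 26 of 38 small subunit genes (68.4%, 52.5 to 80.9) were at a boundary. The difference, large minus small, was -7.31 percentage points (95% Newcombe interval -25.6 to 12.5). After mof RNAi it was 32 and 26 genes, a difference of -9.16 points (-27.4 to 10.8), and at stage 15 it was 32 and 24, a difference of -3.9 points (-22.8 to 16.0). All 3 intervals include 0 and also reach beyond 20 points in the negative direction. They treat genes as independent and are no test. The lists share many boundaries, so the 3 intervals are not separate results. The median distances of large subunit genes were 0.984, 0.984 and 1.21 kb, and those of small subunit genes 0.863, 0.815 and 0.926 kb. The tail was longer in the large subunit, with a highest value of 56.9 kb in control beside 15.5 kb for the small subunit.

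**Figure D3:**
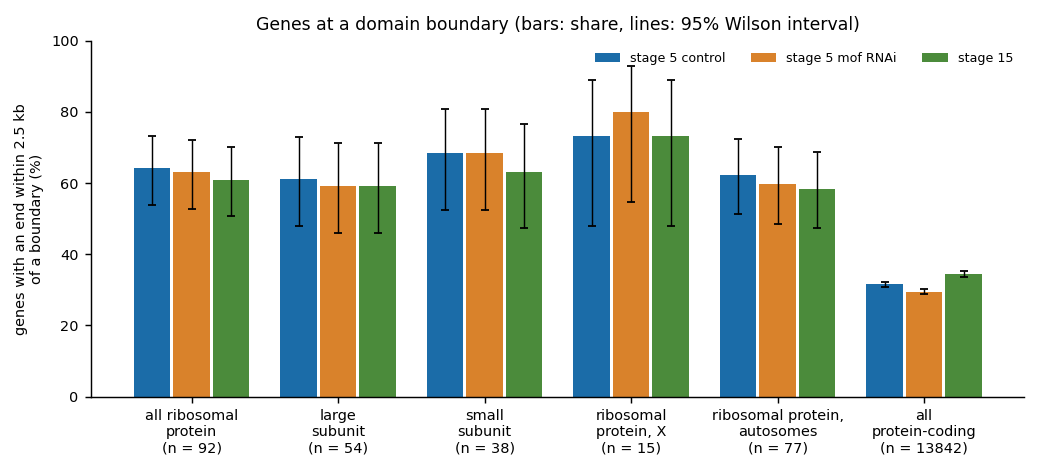
Share of genes (%) with an end within 2.5 kb of a boundary, for all ribosomal protein genes, large and small subunit genes, members on X and on the autosomes, and all protein-coding genes; bars are the 3 lists and lines are 95% Wilson intervals. Each group of ribosomal protein genes lies above the 29.5% to 34.5% of all genes, and the intervals of large and small subunit genes overlap in every list.

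Most members at a boundary in the control list were also at a boundary in the mof RNAi list. Each condition had a single list, so whether the RNAi changed boundaries at the members was not tested. Of the 59 members at a control boundary, 55 also lay at a boundary after mof RNAi (93.2%, 83.8 to 97.3); the figure for the genome was 83.9%. Starting from the 58 members at a mof RNAi boundary, 55 lay at a control boundary (94.8%, 85.9 to 98.2), and the genome's figure was 89.6%. For 51 of the 55 the midpoint was identical, and for the other 4 it lay 1 bin away. The 4 were RpS10b, RpS19a, RpL34a and RpL41.

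The 4 members that lay at a boundary in control but no longer after mof RNAi, RpL4, RpS3, RpL27 and RpL10, fell into 2 kinds. At RpL4 a boundary was called 1 bin away, and at the other 3 the control boundary had no partner within 1 bin and the boundary nearest to the gene after mof RNAi was one that the control list also holds. RpL4 stood at 0.321 kb in control and 2.82 kb after mof RNAi, just outside the window, and at 0.321 kb at stage 15. RpS3, a protein at the mRNA entry site, stood at 1.31, 11.3 and 1.31 kb, and the boundary nearest to it after mof RNAi lay 10 kb from the control boundary that was no longer listed. At RpL27 the values were 0.051, 21.1 and 2.45 kb. The boundary nearest to RpL27 after mof RNAi (3R 25661251 to 25663750) was also in the control list, as the other end of its domain of 22.5 kb. At RpL10, which joins the large subunit late in its maturation, the distances were 0.471, 28.2 and 25.7 kb. RpL10 was thus at a boundary in control alone, while RpL4, RpS3 and RpL27 were at one at stage 15 too. RpS3, RpL27 and RpL4 all lie on 3R, where 12 of 23 members were at a boundary in control and 9 after mof RNAi. Some bins were left out of the stage 5 maps, as the numbering of the boundaries shows. The domain holding RpL27 had 0 left-out bins in control and 7 after mof RNAi, when it spanned 162 kb. That of RpL10 had 2 and 4, and those of RpS3 and RpL4 had 0 in both lists. The part of these gaps in the boundaries no longer listed was not tested.

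Other genes shared these boundaries. The control boundary at RpS3 (3R 23356251 to 23358750) also had ends of PolE1, ATPsynCF6 and Sec13 within 2.5 kb. That at RpL27 (3R 25683751 to 25686250) had Idh3g and CLS, and that at RpL10 (3L 23093751 to 23096250) had CkIIalpha. Within the control list the scores of the boundaries at RpL4, RpS3, RpL27 and RpL10 stood at percentile 4.03, 14.3, 25.5 and 77.7 from the most negative.

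Another 3 members, RpL9, RpS24 and RpL7A, were at a boundary in the mof RNAi list but missed one in control. RpL9 stood at 8.31 kb in control and at 0.811 kb after mof RNAi and at stage 15. RpS24 stood at 3.03 kb in control and at 0.526 kb in the other lists, whose boundary lay 1 bin from that of control. RpL7A stood at 5.9, 0.848 and 5.9 kb, so its boundary at X 6531251 to 6533750 was in the mof RNAi list alone among the 3. Of the 7 members that changed between the stage 5 lists, RpL4 and RpS24 thus differed by a single bin.

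On the X, the chromosome of dosage compensation, every member at a control boundary was at one after mof RNAi too. So were all but 4 of the 48 autosomal members at a control boundary, and 83.9% of all protein-coding genes at one, X and autosomes together. The matching share for all protein-coding genes on X alone was not computed. The 15 members on X had 11 at a boundary in control, 12 after mof RNAi and 11 at stage 15 (73.3%, 80.0% and 73.3%). All protein-coding genes on X stood at 33.6%, 30.8% and 36.9%. The same 11 had a boundary throughout, namely RpL22, sta, RpL17, RpS14a, RpS14b, RpS28b, RpS15Aa, RpL37-1, RpS19a, RpS5a and RpS10b. RpL7A was the twelfth after mof RNAi, and RpL36, RpL35 and RpS6 were at none. The 77 autosomal members had 48, 46 and 45 at a boundary (62.3%, 59.7% and 58.4%), beside 31.2%, 29.3% and 34.1% of all autosomal protein-coding genes. The interval for members on X in control (48.0% to 89.1%) contains the share of autosomal members.

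Between stage 5 and stage 15 more members changed. Of the 59 members at a control boundary, 48 were at a stage 15 boundary (81.4%, 69.6 to 89.3), beside 75.5% of all genes at a control boundary. Of the 56 at a stage 15 boundary the same 48 were at a control boundary (85.7%, 74.3 to 92.6), beside 69.0% of all genes at a stage 15 boundary. For 42 of the 48 the midpoint was the same, and for the other 6 it lay 1 bin away.

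The 11 members at a boundary in control and not at stage 15 differed in how far from the control boundary the nearest one of stage 15 lay. At RpS27A, a ubiquitin fusion gene, it lay 1 bin away, and the gene stood at 0.852 kb in control and 3.35 kb at stage 15. For the other 10 members no stage 15 boundary lay within 1 bin of the control boundary. At RpL12, RpL39 and RpS18 the nearest lay 5 kb from it. RpL39 went from 0.069 to 4.35 kb, RpL12 from 0.64 to 2.88 kb and RpS18 from 1.48 to 6.48 kb. At RpS20 it lay 10 kb away, at RpS16 12.5 kb, at RpS30 and RpL21 17.5 kb, at RpL10 27.5 kb and at RpL7-like 55 kb. The stage 15 boundary nearest to RpL7-like was also in the control list, and that nearest to RpL10 lay 1 bin from one in control, so these values give the next boundary and not a displacement. RpS20 then stood at 9.14 kb, RpS16 at 10.7 kb, RpL21 at 14.6 kb, RpS30 at 18.0 kb and RpL7-like at 51.7 kb. Of these 11, all but RpL10 had the same distance in control and after mof RNAi, and not all are named here.

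At stage 15, 8 members were at a boundary that had been at none in control. RpLP0, the base of the ribosomal stalk, stood at 10.9 kb in both stage 5 lists and 0.013 kb at stage 15, from a boundary at 3L 22076251 to 22078750. RpS12, known in flies for its part in cell competition, stood at 15.2, 15.2 and 0.852 kb, and RpS29 at 15.5, 15.5 and 0.542 kb. RpL27A stood at 6.64, 6.64 and 0.314 kb, and its stage 15 boundary (2L 4456251 to 4458750) is shared with the mitochondrial ribosomal protein gene mRpL27 and with ND-B8. RpL19 went from 2.88 kb at stage 5 to 0.453 kb, and RpS10a from 2.76 kb in control and 15.3 kb after mof RNAi to 0.26 kb. The other two were RpL9 and RpS24, which already had the same boundary after mof RNAi.

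Several members lie near each other, and some pairs differed between the lists. RpS20 and RpS30 lie 27.2 kb apart on 3R, and in both stage 5 lists each was at a boundary of its own. At stage 15 neither of these boundaries was listed, and both genes had the same nearest boundary, between them and more than 2.5 kb from each. RpS12 and RpS4 lie 17 kb apart on 3L. In the stage 5 lists the boundary nearest to both was 1.76 kb from RpS4 and 15.2 kb from RpS12, and at stage 15 it was still listed while another was nearest to RpS12. RpS25 and RpL3 lie 5.61 kb apart on 3R in 1 domain of 25 kb at stage 5, RpS25 at 5.03 kb from a boundary. RpS15 and RpLP2 lie 14.9 kb apart on 2R, with RpLP2 in a domain of 15 kb in every list, and were both at a boundary throughout.

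Paralogs divided by copy. The fly genome carries duplicate or related genes for 13 of the proteins, 27 members in all, of which 16, 16 and 17 lay at a boundary in control, after mof RNAi and at stage 15. Of the 65 members without a paralog it was 43, 42 and 39. The division lay within the families. In 7 of them, 1 copy lies on X and the others on autosomes, and the X copy was at a boundary in all 3 lists in each of the 7. Of the 8 autosomal copies, 1 was at a boundary in control (RpS28a), 1 after mof RNAi (RpS28a) and 2 at stage 15 (RpS28a and RpS10a). All protein-coding genes on the autosomes stood at 31.2%, 29.3% and 34.1%, and those on X at 33.6%, 30.8% and 36.9%. This split by chromosome was made after the values had been seen.

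RpS5a on X stood at 0.764 kb in each list, and RpS5b on 3R, a copy known for its role in the female germline, at 3.44 kb in each. RpS15Aa stood at 0.205, 0.205 and 0.637 kb and RpS15Ab at 11.7 kb throughout. RpL37-1 stood at 0.633 kb throughout and RpL37-2 at 12, 25.1 and 25.1 kb. In these families the X copy was near and the autosomal copy farther away in every list.

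RpS19a stood at 0.394, 0.751 and 0.394 kb and RpS19b at 10.2, 10.2 and 7.73 kb. RpL22 stood at 0.13 kb throughout, with no other protein-coding gene end within 2.5 kb of its boundary. RpL22-like, known for expression in the male germline, stood at 9.11, 9.11 and 81.6 kb. For RpS10b the values were 0.194, 0.531 and 0.531 kb, and for RpS10a 2.76, 15.3 and 0.26 kb, so at stage 15 both lay within 1 bin of a boundary. RpS28b stood at 0.377 kb and RpS28a at 0.148 kb in each list, while RpS28-like stood at 12.8, 12.8 and 10.3 kb. RpS28a, a gene of 304 bp between Mgat2 and Axn ends, is thus the autosomal copy of these families that was at a boundary throughout.

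The X copies were also the longest of their families, at 1.04 to 4.68 kb beside 0.304 to 1.28 kb for the autosomal copies, so chromosome and length cannot be told apart in these 7 families. Over all 13 families the longest copy was at a control boundary in 11, and 5 of the 14 shorter copies were. Of those 11 longest copies, 7 were the X copies just named. In the other 6 families, 8 of 12 genes were at a control boundary, with no division by length. They were RpL7-like, RpL24, RpL34b and RpS14a among the longest copies, and RpL7, RpLP0-like, RpL34a and RpS14b among the shorter.

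In the other 6 families the copies lie on X alone or on autosomes alone. RpS14a and RpS14b are tandem copies 0.22 kb apart on X, and the boundary at X 7933751 to 7936250 was nearest to both in all 3 lists, at 0.323 and 0.102 kb. RpL34a stood at 0.733, 0.92 and 0.92 kb and RpL34b at 0.237 kb throughout. RpL10Aa and RpL10Ab were at none, the second at 10.8 kb in each list. Both copies of RpS14 and RpL34 were thus at a boundary throughout and both of RpL10A at none.

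RpL24, RpL7 and RpLP0 each have a relative named -like, whose yeast counterparts (Rlp24, Rlp7 and Mrt4) act in ribosome assembly. RpL24 stood at 0.131 kb throughout and RpL24-like at 5.92, 23.2 and 5.92 kb. RpL7 stood at 1 kb throughout and RpL7-like at 1.33, 1.33 and 51.7 kb. RpLP0-like stood at 0.41 kb in each list, where RpLP0 was near a boundary at stage 15 only. Of the 5 genes named -like, 2, 2 and 1 lay at a boundary in control, after mof RNAi and at stage 15. All protein-coding genes stood at 31.6%, 29.5% and 34.5%.

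**Figure D4:**
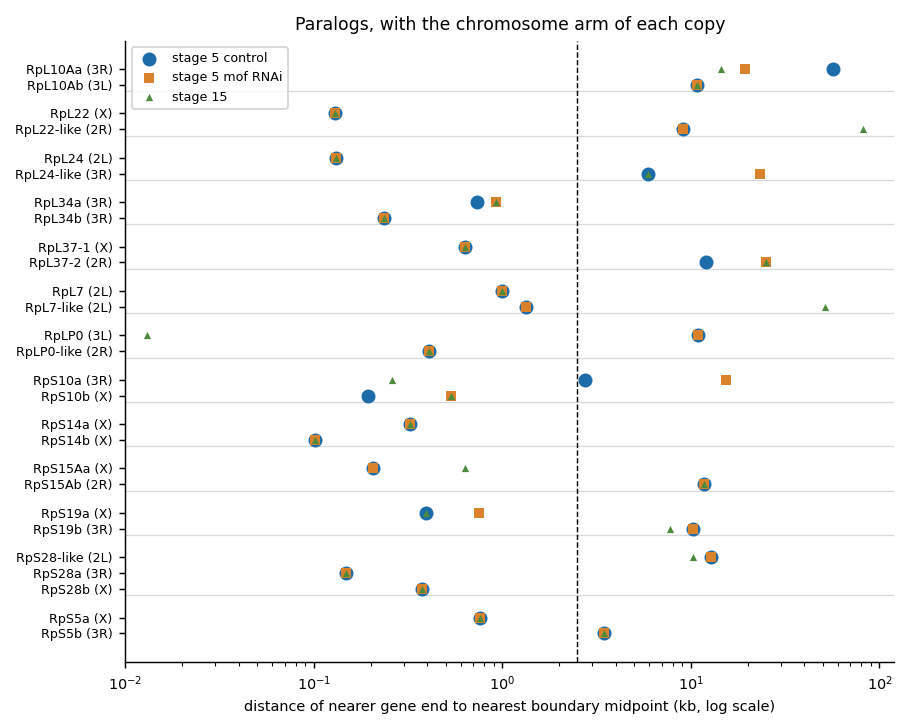
Distance in kb (log scale) of each paralog's nearer end to the nearest boundary midpoint, with the chromosome arm in parentheses and families set apart by grey lines; circles are stage 5 control, squares stage 5 mof RNAi, triangles stage 15, and the dashed line is 2.5 kb. The 7 X copies with an autosomal relative lie at 0.13 to 0.764 kb in every list.

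Boundaries at ribosomal protein genes ranked among the more negative scores. The score is the authors' deposited value for each boundary, on a scale that is not stated, and was read only by rank and sign within a list. The members touched 57 boundaries of the control list, 56 of the mof RNAi list and 55 of the stage 15 list. Of these, only 5, 4 and 8 had no other protein-coding gene with an end within 2.5 kb. The median number of such other genes was 2 in each list. Boundaries at any gene end were not matched for this number, so the scores cannot be credited to the members alone. The median score percentile of boundaries at members, counted from the most negative, was 18.7, 22.6 and 20.1. For boundaries at any protein-coding gene end it was 41.1, 40.8 and 44.1. With each list divided into 4 equal parts by score, the part with the most negative scores held 35 of the 57 (61.4%), 31 of the 56 (55.4%) and 31 of the 55 (56.4%). It held 30.6%, 31.1% and 27.5% of boundaries at any gene end.

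**Figure D5:**
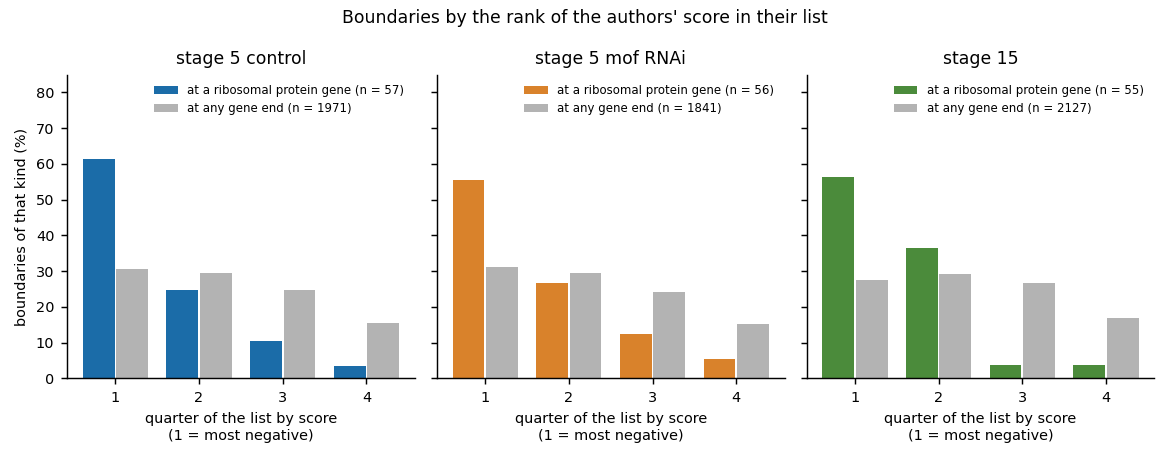
Share (%) of boundaries at a ribosomal protein gene (coloured) and at any protein-coding gene end (grey) that fall in each of 4 equal parts of their list by the authors' score, the first being the most negative; each panel is 1 list. The coloured bar of the most negative part stands at 61.4%, 55.4% and 56.4%, and the grey bar at 30.6%, 31.1% and 27.5%.

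Boundaries at members were found again in other lists at shares that can be set beside those of other gene ends of like score. In the most negative of the 4 parts of the control list, 34 of the 35 had a partner within 2.5 kb after mof RNAi (97.1%), beside 92.5% of the 604 at any gene end. At stage 15 it was 31 of the 35 (88.6%), beside 80.5%. In the next part it was 13 of 14 after mof RNAi and 11 of 14 at stage 15, beside 87.4% and 77.2%. In the third part it was 6 of 6 after mof RNAi and 5 of 6 at stage 15, beside 82.4% and 70.2%, and in the fourth 1 of 2 in each, beside 64.5% and 46.7%. Over all scores 54 of the 57 control boundaries at members had a partner after mof RNAi (94.7%, beside 84.2% at any gene end) and 48 at stage 15 (84.2%, beside 71.8%). The members' share stood above that of gene ends in the first 3 parts and below it in the fourth after mof RNAi, where it rests on 2 boundaries.

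A few members lie toward the centromeres, where stage 5 maps left out many bins, as the numbering of the boundaries shows. RpL15 on 3L stood at 0.245, 0.245 and 2.25 kb, with no other protein-coding gene end within 10 kb. RpL5 on 2L lay in domains with 39 and 42 left-out bins at stage 5, and RpL38 on 2R in domains with 31 and 9. Of the 33 members at no control boundary, 8 lay in a domain with left-out bins, and of all 92 members 27 did. After mof RNAi 29 members did, and at stage 15 no member did. The part of these gaps in the distances was not tested. The domains that held members had medians of 39.4, 43.1 and 35 kb, and all domains had 38.6, 40 and 35 kb.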

How the data were processed

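Per the file names and the labels, the authors deposited boundary lists called on 2.5 kb bins of dm6 (the build is per the submitters' processing notes), with 1 score per boundary; the score is their own deposited value on an unstated scale. The aligner, the boundary caller and its thresholds: not given in the sources used here. Depth is unknown. The stage 5 lists were tied to groups by stage and condition in their names, and the stage 15 list by the descriptions of its 8 libraries; pooling was taken as given. The strain labels of the mof RNAi samples speak of control RNAi, so groups follow the titles. Another stage 5 list was byte for byte the control list and was not used.

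Genes came from RefSeq's table of Release 6, the assembly of dm6. It holds no strand, so either gene end was used, and starts could not be separated from ends; no promoter or protein sequence was used here. Distances, counts, 95% Wilson intervals and Newcombe intervals were computed in Python 3.11.15 with numpy 2.4.6, pandas 2.3.3 and scipy 1.17.1, and the distance code was tested on simulated data. Genes are no replicates, so no test was run. Members, gene lists and alternatives were chosen with earlier results of these data known. All 92 members enter the counts, and 2 are not reported here by name. Values are otherwise given for members at 1 or 2 lists, the 5 nearest to and the 5 farthest from a control boundary, and all paralogs. Other members were named as examples of their group, after their values were seen.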

Additional observations from a re-analysis of the deposited data

How the results depend on the processing

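All 66 alternative values lay within 1.5 times the value reported, which bounds each value and not the difference from all genes. That difference narrowed as the window grew. In control 52.2% of members and 18.5% of all genes lay within 1 kb, and 83.7% and 63.6% within 10 kb. Windows of 1, 5 and 10 kb, distances to the gene body or to the edge of the boundary interval, boundaries 1 bin wide and leaving out the genes named -like gave 48 to 77 members at a control boundary, 49 to 73 after mof RNAi and 45 to 73 at stage 15. Distances to the gene body and boundaries 1 bin wide could not change the counts. A midpoint inside a member always lies within 2.5 kb of an end, as no member exceeds 4677 bp. No boundary at a member was wider than 1 bin. With the 50% of boundaries with the most negative scores, 51, 48 and 52 members were at a boundary. The share of all protein-coding genes was computed for the windows, and not for the score, edge or gene body settings. Counts under those settings therefore do not show whether the difference from all genes holds. Members at a boundary in control and after mof RNAi numbered 45 to 72 over windows and matching by partner boundaries within 0, 2.5 or 10 kb, and in control and at stage 15 37 to 67. Large subunit genes ranged from 25 to 44 and small subunit genes from 20 to 33 over lists and windows. Distances to gene starts alone, promoter motifs and protein identities were not run, because no strand or sequence was used here. No paired analysis was possible because each list pools its libraries and no result comes from a test. Single lists leave no replicate to leave out, unknown depth limits any reading of an absent boundary, and bins of 2.5 kb limit every distance.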

Other observations

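Many ribosomal protein genes carry small nucleolar RNA genes, which guide modification of ribosomal RNA, inside their introns. In the annotation 28 of the 92 members had at least 1 annotated snoRNA gene inside, up to 14 in RpS5a, 7 in RpS7 and 5 each in RpS16 and RpL28. Without strand, a snoRNA on the other strand could not be told apart. Of the 28, 18, 18 and 19 were at a boundary in the control, mof RNAi and stage 15 lists (64.3%, 64.3% and 67.9%). Of the 64 without a snoRNA gene it was 41, 40 and 37 (64.1%, 62.5% and 57.8%). Of 67 other protein-coding genes with a snoRNA gene inside, 33, 32 and 30 were at a boundary (49.3%, 47.8% and 44.8%). This division was chosen after the data had been seen, and no test was run.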
